A study of Rattus norvegicus with 8 samples.

Results

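The cytosolic sulfotransferases of the rat ovary and the steroid sulfatase Sts were followed across 4 arrays labelled control and 4 labelled PMSG. All array genes named ste2, Sts or beginning with Sult were taken. This gave 15 genes with 17 probes, of 26214 gene names on the array. The members were chosen by name and selected on their scaled log2 signals and background calls in this very comparison, known from earlier results, so their differences between labels are described here and carry no test.

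Both groups were female rats aged 26 days at injection and 28 days when the ovaries were removed, 48 h later. The PMSG group received 50 IU of pregnant mare serum gonadotropin, a gonadotropin extract that mainly acts like follicle-stimulating hormone, under the skin in 0.2 ml of albumin in phosphate buffer. The control group received 0.2 ml of that buffer alone. RNA of whole ovary (500 ng) was labelled with Cy3 and read on 1-colour Agilent rat arrays. The labels do not say whether an array held 1 animal or a pool, so the spread between arrays is the only error measured, and 4 arrays a group limit the precision. All 6 general ovary markers (Fshr, Amh, Zp2, Zp3, Gdf9 and Cyp11a1) were well above background on all 8 arrays. Directions follow the sample titles and set arrays labelled PMSG beside arrays labelled control, since luteal genes ran opposite to the direction generally known for gonadotropin. Whether the titles are right was not tested, and if they were exchanged every direction given here, such as fell or higher, would turn.

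Sulfotransferases of the cytosol move a sulfonate group from the donor PAPS onto hydroxyl groups of steroids, thyroid hormones, catechols and drugs. A sulfated estrogen no longer binds its receptor, dissolves in water and needs a carrier to cross membranes. Sts, in the endoplasmic reticulum, cuts the sulfate off again and returns the free steroid, so the balance of both activities sets how much active estrogen a tissue holds.

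The probes that carry the main differences are shown first, since they decide which transcripts were measured. The first 30 bases of the 60 on the array are given for ste2, for both Sult1b1 probes and for Sult1a1, with the run shared by the Sult1b1 probes in capitals.
ste2: agctctgagacacttccttgtgtctgaaat
Sult1b1 probe 1: gggccaaggtCTTTTGTGATCTTAGTTTTC
Sult1b1 probe 2: CTTTTGTGATCTTAGTTTTCAAAGGGTATG
Sult1a1: ggaaagcaatcagtcccaacacctaaaaag
The Sult1b1 probes lie 10 bases apart and share 50 of their 60 bases, so they are repeated readings of 1 site and not separate evidence. No other probe on the array shared a run of 20 bases with the probes of ste2 or Sult1a1. The name ste2 is the array's. RefSeq gives the accession of this probe the symbol Sult1e1, the estrogen sulfotransferase, which has the highest affinity for estradiol and estrone in the family. The array files list transcripts under both names for it, so the probe does not separate them.

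Values below are log2 processed signals minus the array's 75th percentile, and a level is that value on 1 array. A probe is called well above background on 1 array if a share of 0.5 or more of the spots kept there carried that flag of the scanner software. Levels of different probes are not set against each other. The scaling puts the median difference of all tested probes at 0.11, so a small positive difference is near the array's own middle.

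The estrogen sulfotransferase probe ste2 (chromosome 14, 21965266 to 21965325, rn4) was well above background on every control array and on no array labelled PMSG. Its level was -3.67, -3.15, -3.04 and -4.31 on control arrays 1 to 4. On PMSG arrays 1 to 4 it was -7.00, -7.52, -6.96 and -7.20, each not well above background. The groups were separated by 2.65 between the lowest control and the highest PMSG array, more than the whole range within either group (1.27 in control and 0.56 in PMSG). The means were -3.54 ± 0.58 (SD, n = 4) in control and -7.17 ± 0.26 (SD, n = 4) in PMSG, a measured log2 difference of -3.63 (SE 0.28). Because the PMSG values are at background, only a bound holds: the control arrays were at least 7.25-fold higher than the PMSG arrays. In that bound the PMSG side is, per array, the higher of the dimmest signal called well above background and the probe's own. It carries no error and holds only for this scaling and background correction, as do the bounds of other probes below. Both spots of the probe showed the same split, with control spot signals between 50.0 and 181 and PMSG spot signals between 4.54 and 10.9. A probe like this one enters the table of tested probes only through the group in which it is bright. With the normexp background correction, whose offset of 50 is larger than every PMSG signal of the probe, the difference shrank to -1.09 in the same direction.

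Luteal cell markers moved with ste2, and their part in its difference was not tested. All 7 luteal markers were lower in arrays labelled PMSG by limma with adjustment over all tested probes, beside 16.6% of those probes. The markers were Lhcgr, Ptgfr, Akr1c18, Prlr, Scarb1, Cyp11a1 and Star, with a median log2 difference of -2.75, and the summed signal of the list was 150.6 to 172.4 times the array's 75th percentile in control and 14.8 to 32.7 times in PMSG. Ptgfr was well above background on 0 of 4 PMSG arrays and Akr1c18 on 1, so the control arrays alone brought both into the test. Their calls are counted among the 7, but no p is given. With only probes well above background on all 8 arrays, 5 luteal markers were called lower. In whole tissue, fewer cells of a type and less RNA per cell cannot be told apart. Markers of the liver, a major site of sulfotransferases, divided, with 60% of 5 called, beside 34.2% of all tested probes. Ttr and Apoa1 were lower, Serpina1 was higher, and Alb and Cyp2c11 did not pass. Their summed signal was 0.611 to 0.911 times the 75th percentile in control and 0.278 to 0.400 times in PMSG.

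Sult1b1, the thyroid hormone sulfotransferase, was lower in arrays labelled PMSG but remained measurable on all 8 arrays. On its second probe (chromosome 14, 22031825 to 22031884, rn4) the control levels were 0.66, 1.18, 0.94 and 2.02 and the PMSG levels -1.27, -0.75, -1.12 and -1.15. Control array 4 was the highest of its group, and the gap between groups was 1.41. The means were 1.20 ± 0.58 and -1.07 ± 0.22 (SD, n = 4 each), a log2 difference of -2.27 (SE 0.28), or 4.83-fold. The first probe (22031815 to 22031874) had 0.48, 1.00, 0.87 and 1.87 in control and -1.45, -0.94, -1.36 and -1.22 in PMSG, a difference of -2.30 (SE 0.28). Control array 4, where Sult1b1 was highest, was the array where ste2 was lowest among the controls. Without it the Sult1b1 difference was -2.00 on the second probe and that of ste2 was -3.88.

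Sult1a1, the phenol sulfotransferase, ran the other way. Its levels were 0.93, 0.93, 0.81 and 0.75 in control and 1.48, 1.68, 1.73 and 1.42 in PMSG (chromosome 1, 185829252 to 185829311, rn4). All PMSG arrays lay above all control arrays, with a gap of 0.49 and a range of 0.18 within control. The difference was 0.72 (SE 0.11), or 1.65-fold, and its size depends in part on the scaling: centring each array on its median gave 0.55.

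**Figure D1:**
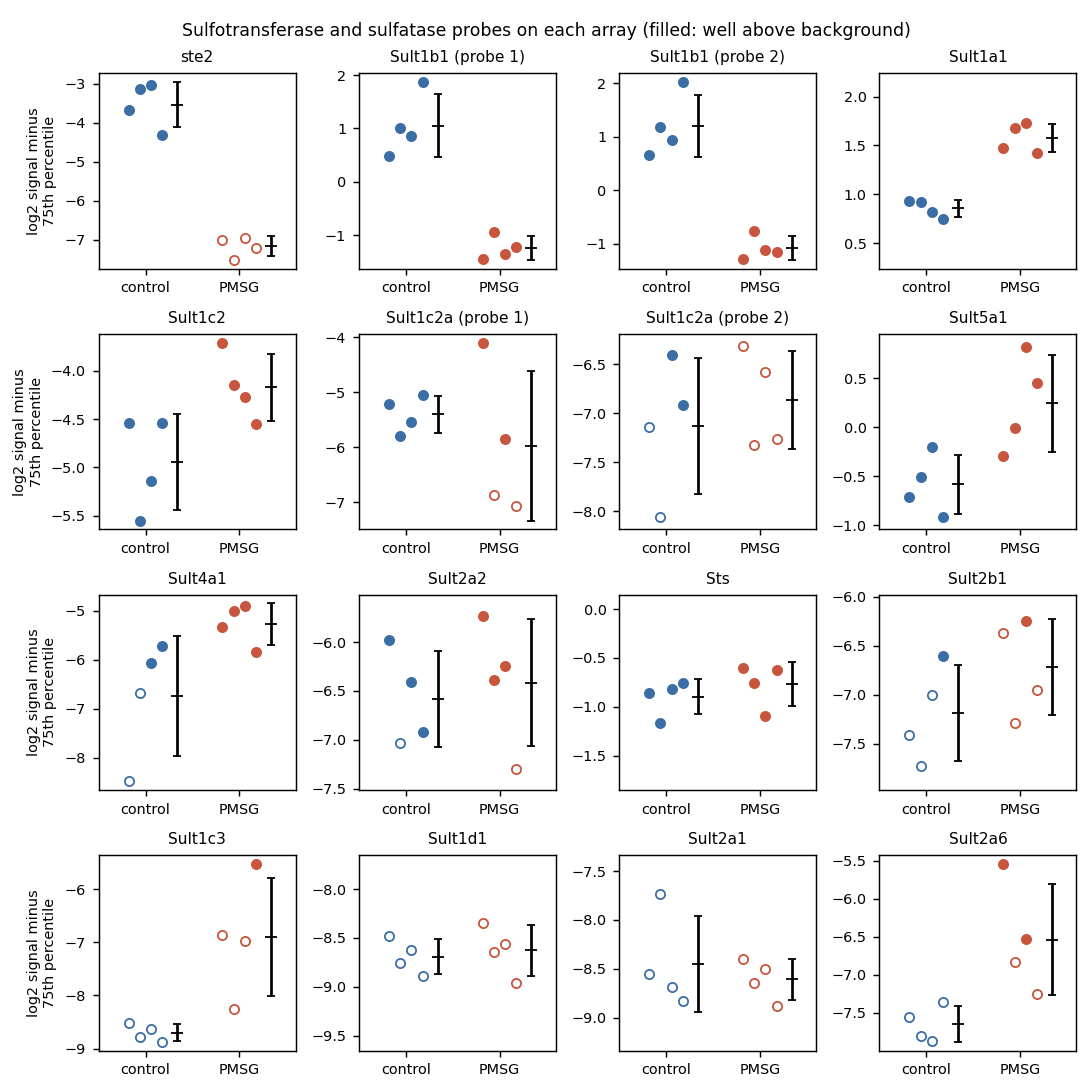
Level of 16 sulfotransferase and sulfatase probes on each array, as log2 signal minus the array's 75th percentile (vertical axes differ between panels and each spans at least 2 log2 units), for the 4 control arrays (blue) and the 4 arrays labelled PMSG (red). Filled points are well above background, and black bars give mean and SD: ste2 is filled in control and open in PMSG, both Sult1b1 probes drop without leaving the measured range, and Sult1a1 is higher in PMSG on every array.

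Sult5a1 and Sult1c2 were also measured on all 8 arrays and had higher means in arrays labelled PMSG, with overlap. Sult5a1 (chromosome 19, 53472826 to 53472885, rn4), a family member of little known substrate, stood at -0.71, -0.50, -0.21 and -0.92 in control and -0.30, -0.01, 0.82 and 0.46 in PMSG. Only PMSG array 1 fell within the control range, and the difference was 0.83 (SE 0.26) from a single spot per array. Sult1c2 (chromosome 9, 997939 to 997998) had -4.54, -5.55, -5.14 and -4.54 in control and -3.71, -4.15, -4.27 and -4.55 in PMSG. Here PMSG array 4 lay at the level of the upper controls, and the difference of 0.77 (SE 0.27) rested on signals of 22.5 to 75.2. The Sult1c2 difference was 0.38 with the normexp correction, and its 2 spots on 1 array differed by up to 1.19 on the log2 scale.

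Sts, the enzyme that reverses the reaction, showed no separation. The sulfatase (chromosome X, 63923747 to 63923806, rn4) stood at -0.85, -1.16, -0.81 and -0.76 in control and -0.60, -0.76, -1.09 and -0.62 in PMSG. The arrays of both groups were interleaved, and the difference of 0.13 (SE 0.15) was smaller than the SD of either group (0.18 and 0.23). Centring on the median turned it to -0.04. Its probe was well above background on all 8 arrays, with signals of 360.6 to 703.2.

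The remaining members were dim, and most cannot be ordered between the labels. Sult4a1, the brain form, was well above background on 4 PMSG arrays and 2 control arrays, at -8.48, -6.69, -6.07 and -5.72 in control and -5.32, -5.01, -4.91 and -5.85 in PMSG. The measured difference of 1.47 (SE 0.56) was not called, and PMSG array 4 overlapped control array 4. With dim control arrays set no lower than the dimmest signal called well above background, the PMSG mean was 1.86-fold higher. The groups overlapped, so this is not a firm minimum. The difference was 0.89 without control array 1 and 0.38 with the normexp correction. Sult1c2a had a pair of probes that did not run alike: the brighter was above background on 4 control and 2 PMSG arrays with a difference of -0.57 (SE 0.60), the dimmer on 2 and 0 arrays with 0.26. Without PMSG array 1, at -4.10 far above the other PMSG arrays, the brighter probe's difference was -1.20. Quantile normalization turned the dimmer probe to -0.10, and the normexp correction put the brighter one at 0.01.

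The hydroxysteroid sulfotransferases of the Sult2 group, which act on dehydroepiandrosterone, bile acids and cholesterol, were at or near background. Sult2a2 was above background on 3 arrays of each label with a difference of 0.17 (SE 0.36). It had 10 spots an array whose signals on 1 array differed by a median of 2.88 on the log2 scale, and quantile normalization turned its difference to -0.17. Sult2a6 was above background on 0 control and 2 PMSG arrays, and Sult2a1 on 0 of 8. Sult2b1, the cholesterol and pregnenolone sulfotransferase (chromosome 1, 96261431 to 96261490, rn4), stood at -7.41, -7.73, -7.00 and -6.61 in control and -6.37, -7.29, -6.24 and -6.96 in PMSG. It was above background on 1 array of each label, through 1 of the 2 spots each time, so no direction can be read from it. Another probe, for a transcript described as similar to a cytosolic sulfotransferase and lying about the same stretch of chromosome 1, was above background on 0 control and 1 PMSG array.

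Sult1c3 was above background on PMSG array 4 alone, and Sult1d1, a catecholamine sulfotransferase in rodents, on no array. Sult6b1 had 1 spot per array and that spot was called an outlier on control array 2, so it has no value there and was left out of the fit. Its usable signals were 12.0, 20.1 and 17.5 on control arrays 1, 3 and 4 and 32.5, 33.9, 28.6 and 20.1 on PMSG arrays 1 to 4, of which control array 1 was not well above background.

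Of the 17 probes, 16 had a value on all arrays, 10 probes of 9 genes were bright enough to be tested, 6 were well above background on all 8 arrays and 2 on none. Over the whole array, 25303 probes were tested and limma called 34.2% of them at an adjusted p under 0.05. In the same fit 5 of the 10 probes were called, 2 higher and 3 lower, against 17.6% and 16.6% of all tested probes. Groups did not overlap for 4 of the 10, against 36.6% of all tested probes. As the members were picked with this comparison known, and 2 of the 3 lower probes read the same Sult1b1 site, nothing is read from these counts. The median difference was 0.15 over the 10 probes and 0.11 over all. The whole-array split of 4452 higher and 4206 lower became 2914 and 5534 with median centring, and 6982 and 4400 without PMSG array 4.

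**Figure D2:**
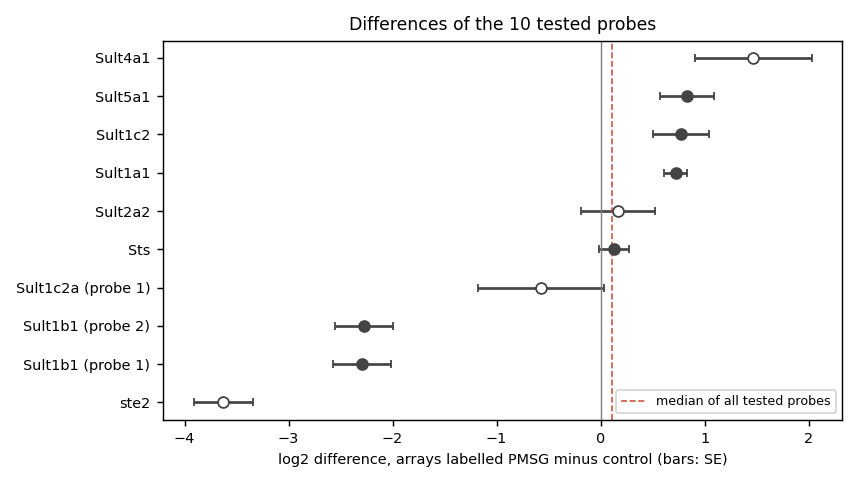
Log2 difference (arrays labelled PMSG minus control) of the 10 tested probes, with bars for the SE of the fit. Filled points were well above background on all 8 arrays, open points on fewer; the dashed line is the median of all tested probes at 0.11, with ste2 at -3.63 and Sult4a1 at 1.47 as the outer values.

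The genes ste2, Sult1d1 and Sult1b1 lie in this order on chromosome 14, and both outer genes were lower in arrays labelled PMSG while the middle one was at background. Only 16.7% of the bases of the Sult1d1 probe were G or C, the lowest share of the member probes. For Sult1d1, an absent transcript and a probe that does not read it cannot be told apart. The ste2 probe ended 36.6 kb before the Sult1d1 probe, which ended 29.8 kb before the first Sult1b1 probe, so all 4 probes fit in 66.6 kb of rn4. A window of 250 kb to each side, set after the values had been seen, held 14 other probes. Of these, 10 were above background on no array, among them Ugt2a1, Ugt2a3 and Ugt2b of the glucuronosyltransferases, which conjugate steroids with a sugar acid. The other 4 were tested by limma with adjustment over all tested probes. Csn2, the milk protein beta-casein, had a higher mean in arrays labelled PMSG, with overlapping groups, above background on 1 control and 4 PMSG arrays. With dim control arrays set no lower than the dimmest signal called well above background, Csn2 was 1.31-fold higher, which is not a firm minimum. Its measured difference was 1.04 (SE 0.32), and 0.30 with the normexp correction. It was called, but its PMSG arrays alone carried it past the filter, so no p is given. The call was lost under 9 of 16 alternatives. Leaving out control array 2, 3 or 4 or PMSG array 1, 2 or 3 each ended it. Its casein neighbours Csn1s1 (0.43, adjusted p = 0.121) and Csn1s2b (0.07, adjusted p = 0.867) and the gene model RGD1562394 (0.17, adjusted p = 0.248) did not pass, although Csn1s1 reached an adjusted p = 0.00784 when PMSG array 4 was left out (at most 0.250 over its alternatives). No neighbour was called lower.

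**Figure D3:**
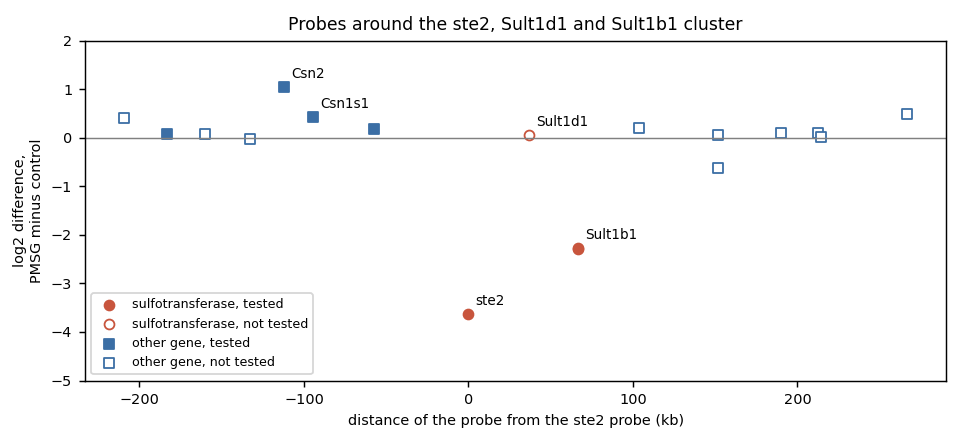
Log2 difference (arrays labelled PMSG minus control) of each probe against its distance in kb from the ste2 probe, with sulfotransferases as red circles and other genes as blue squares. Filled symbols were tested and open ones were too dim; ste2 at -3.63 and both Sult1b1 probes at -2.30 and -2.27 lie below, while the 4 other tested probes lie between 0.07 and 1.04.

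Both outer genes of the cluster were lower in arrays labelled PMSG and Sts was not. The 250 bases before the start of the 3 clustered genes and of Sts are shown, and their part in the differences was not tested. They come from the RefSeq promoter table on GRCr8, which held 14 of the 15 genes. Capitals mark matches to any of 5 motifs searched on both strands: AAGGTCA (the site of the NR5A receptors, which drive steroidogenic genes), the full palindromic estrogen response element with its 3-base gap, which may overlap the former, TGACGTCA (a cAMP response element), GGGCGG (an Sp1 box), and the core promoter box spelt TATAAA. Sult1e1 is the RefSeq name of ste2.
Sult1e1 (chr14:20701230-20701479, plus strand): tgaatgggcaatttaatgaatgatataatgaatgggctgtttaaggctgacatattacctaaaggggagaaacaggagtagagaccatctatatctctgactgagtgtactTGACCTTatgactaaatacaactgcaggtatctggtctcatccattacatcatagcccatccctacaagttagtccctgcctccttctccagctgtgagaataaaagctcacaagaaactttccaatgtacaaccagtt
Sult1d1 (chr14:20720829-20721078, plus strand): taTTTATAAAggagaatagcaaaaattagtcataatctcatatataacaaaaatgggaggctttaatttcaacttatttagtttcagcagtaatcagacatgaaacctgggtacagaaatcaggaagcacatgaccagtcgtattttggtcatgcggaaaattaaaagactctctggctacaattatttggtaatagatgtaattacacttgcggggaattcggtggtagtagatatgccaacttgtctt
Sult1b1 (chr14:20771667-20771916, plus strand): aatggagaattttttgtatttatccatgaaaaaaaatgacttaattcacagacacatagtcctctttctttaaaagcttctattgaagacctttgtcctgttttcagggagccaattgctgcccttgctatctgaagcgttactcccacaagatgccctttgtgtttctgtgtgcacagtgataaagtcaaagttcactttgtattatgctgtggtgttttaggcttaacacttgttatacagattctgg
Sts (chrX:46102510-46102759, plus strand): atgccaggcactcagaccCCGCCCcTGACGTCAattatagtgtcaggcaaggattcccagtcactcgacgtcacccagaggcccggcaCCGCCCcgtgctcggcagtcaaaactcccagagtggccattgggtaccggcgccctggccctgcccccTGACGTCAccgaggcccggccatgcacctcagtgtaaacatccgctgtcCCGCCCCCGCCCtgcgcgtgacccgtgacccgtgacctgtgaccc
Sult1e1 held 1 NR5A site, read on the minus strand, starting 139 bases before the gene's start. It was the only 1 of the 14 with that site, which 3.99% of 33469 promoters of this length held. Sult1b1 held none of the 5 motifs in this window, and Sult1d1 held overlapping core boxes on both strands at the far end. Sts held 2 cAMP response elements, which 1.59% of promoters held at least once, and 4 Sp1 boxes. Over the 14 genes, 4 held an Sp1 box (30.5% of all promoters), 5 the core promoter box (12.9%) and 0 a full estrogen response element (0.00896%). These are matches of letters and not shown sites.

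The NR5A receptor genes themselves were on the array. Nr5a2, which is expressed in granulosa and luteal cells, was lower in arrays labelled PMSG, at 0.05, 0.54, -0.18 and 0.32 in control and -1.24, -1.04, -1.63 and -1.23 in PMSG (log2 difference -1.47, SE 0.19, limma adjusted p = 7.70e-04). Nr5a1 did not pass (-0.36, adjusted p = 0.260). A link between either receptor and ste2 was not tested.

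The other genes of sulfation were read from a list of 66, of which 57 were tested, with 1 probe per gene. Of these, 23 passed (40.4%, beside 34.2% of all probes), 11 higher and 12 lower in arrays labelled PMSG, with a median difference of 0.02 beside 0.11 over all probes. With median centring 6 were higher and 14 lower, and without control array 4 a total of 15 passed. The carrier Slc51a had the largest difference, in either direction, of the 57 genes.

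Among 9 tested genes of donor supply, 1 was higher and 2 were lower (33.3%, near the 34.2% of all probes). The PAPS synthases Papss1 and Papss2, which make the donor, had differences of -0.07 (adjusted p = 0.806) and 0.18 (adjusted p = 0.386; -0.39 on another Papss2 probe), and the Golgi PAPS carrier Slc35b2 had -0.02 (adjusted p = 0.881). The sulfate transporter Slc26a1 was higher by 1.43 (SE 0.36), and by 0.38 with the normexp correction. It was above background on 2 control and 4 PMSG arrays, and its groups overlapped. With dim control arrays set no lower than the dimmest signal called well above background, it was 1.94-fold higher, which is not a firm minimum. Its PMSG arrays alone carried it past the filter, so its call is counted but no p is given. The call was lost with quantile normalization. Another sulfate transporter, Slc26a2 (-0.46, adjusted p = 0.0400), and Impad1, a phosphatase that clears the spent donor (-0.32, adjusted p = 0.0282), were lower on the probes used. Impad1 had another probe at -1.25. Bpnt1, of the same donor list, did not pass (-0.21, limma adjusted p = 0.285). The intestinal and renal sulfate transporter Slc13a1 and its relative Slc13a4 were above background on no array.

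Of 13 tested carriers of steroid sulfates, 5 were higher and 2 were lower (53.8%, beside 34.2% of all probes). Slc51a, the alpha subunit of the organic solute transporter that exports estrone sulfate and bile acids, stood at 1.37, 0.78, 1.39 and 1.72 in control and -2.61, -2.34, -2.92 and -3.08 in PMSG. It fell by 4.05 on the log2 scale (SE 0.23, limma adjusted p = 3.81e-05). Its obligate partner Slc51b stood at -3.40, -3.69, -3.70 and -3.53 in control and -3.45, -3.31, -3.06 and -3.94 in PMSG, with overlapping groups (0.14, adjusted p = 0.573). The ATP-driven exporter Abcc4, which carries steroid sulfates, fell by 1.66 (SE 0.09, adjusted p = 3.67e-05). Its levels were 0.96, 0.72, 0.86 and 0.92 in control and -0.83, -0.71, -0.86 and -0.79 in PMSG, and its other probe had -1.81. The exporters Abcc1, Abcc2, Abcc3 and Abcg2 did not pass, with differences between -0.28 and 0.30.

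Uptake carriers of the organic anion family were mostly higher. Slco1a4, for which the array uses the older name Slco1a2, stood at -0.19, -0.04, -0.14 and -0.71 in control and 1.71, 1.51, 1.91 and 2.06 in PMSG, a difference of 2.07 (SE 0.18, limma adjusted p = 1.87e-04). Slco2b1, an importer of estrone sulfate, was higher by 1.58 (SE 0.16, adjusted p = 3.26e-04) and Slco4a1 by 1.20 (SE 0.15, adjusted p = 7.11e-04). All PMSG arrays lay above all control arrays for these 3 genes. Slco1a5 was higher by 0.93 (adjusted p = 0.00575), a call that quantile normalization ended (adjusted p = 0.0554). The sodium-dependent sulfosteroid importer Slc10a6 passed narrowly (0.78, adjusted p = 0.0461) with overlapping groups. Slco3a1 (0.01, adjusted p = 0.969) did not pass, Slco1a1 was above background on 2 PMSG arrays, and Slco1b2, the liver form, on none.

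Of 13 tested sulfatase genes other than Sts, 2 were higher and 3 lower (38.5%, near the 34.2% of all probes). Sulf2, which trims sulfate from heparan sulfate outside the cell, fell by 1.26 (SE 0.11, limma adjusted p = 2.08e-04), from 3.62, 3.44, 3.43 and 3.60 in control to 2.19, 2.11, 2.25 and 2.50 in PMSG. Sumf1, which activates all sulfatases, Sts included, by forming their catalytic formylglycine, fell by 0.66 (SE 0.16, adjusted p = 0.0129). Its levels were -0.66, -0.79, -0.56 and -0.56 in control and -1.43, -0.93, -1.63 and -1.22 in PMSG, without overlap. Arsk was above background on 4 control arrays and 0 PMSG arrays, at least 1.17-fold higher in control. It entered the tested probes only through the control arrays, so its call is counted but no p is given, and with the normexp correction its difference was -0.03. The lysosomal sulfatases Ids (0.48, adjusted p = 0.0221) and Arsg (0.46, adjusted p = 0.0292) were higher, and Arsa, Arsb and Galns did not pass.

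Golgi sulfotransferases, which act on proteins, glycolipids and glycosaminoglycans and not on steroids, had 3 of 22 genes higher and 5 lower (36.4%, near the 34.2% of all probes). Gal3st1, which makes sulfatide, was the furthest raised (1.64, SE 0.20, adjusted p = 7.11e-04), followed by Chst10 (0.76, adjusted p = 0.0164) and Ndst2 (0.43, adjusted p = 0.00495), the latter pair without a call under median centring (adjusted p = 0.100 and 0.166). Chst1, a keratan sulfate enzyme, fell by 1.49 (SE 0.17, adjusted p = 4.49e-04) and the tyrosylprotein sulfotransferase Tpst2 by 1.01 (SE 0.15, adjusted p = 0.00144). The chondroitin sulfate enzymes Chst15 (-1.12, adjusted p = 0.0362) and Chst11 (-0.92, adjusted p = 0.0443) were lower. Hs2st1 was lower on its brighter probe (-0.36, adjusted p = 0.0477) and at 0.15 on the other.

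Smaller calls of the pathway depended on single arrays. Those of Hs2st1 and Slc10a6 were lost under 12 of 17 alternatives, that of Slc26a2 under 9, Chst11 under 8, Chst15 under 7 and Impad1, Arsg and Ids under 6 each. Leaving out control array 4 ended all 8 of them, and leaving out control array 2 ended all but that of Slc26a2. Leaving out PMSG array 1 ended all but that of Chst11. Each of the other 5 arrays ended 3 to 6 of these calls. Adjusted p without one of the arrays reached at most 0.127, for Hs2st1. Calls of 10 of the 23 genes held under every alternative, those of Slc51a, Abcc4, Slco1a4, Slco2b1, Slco4a1, Sulf2, Sumf1, Chst1, Tpst2 and Gal3st1.

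**Figure D4:**
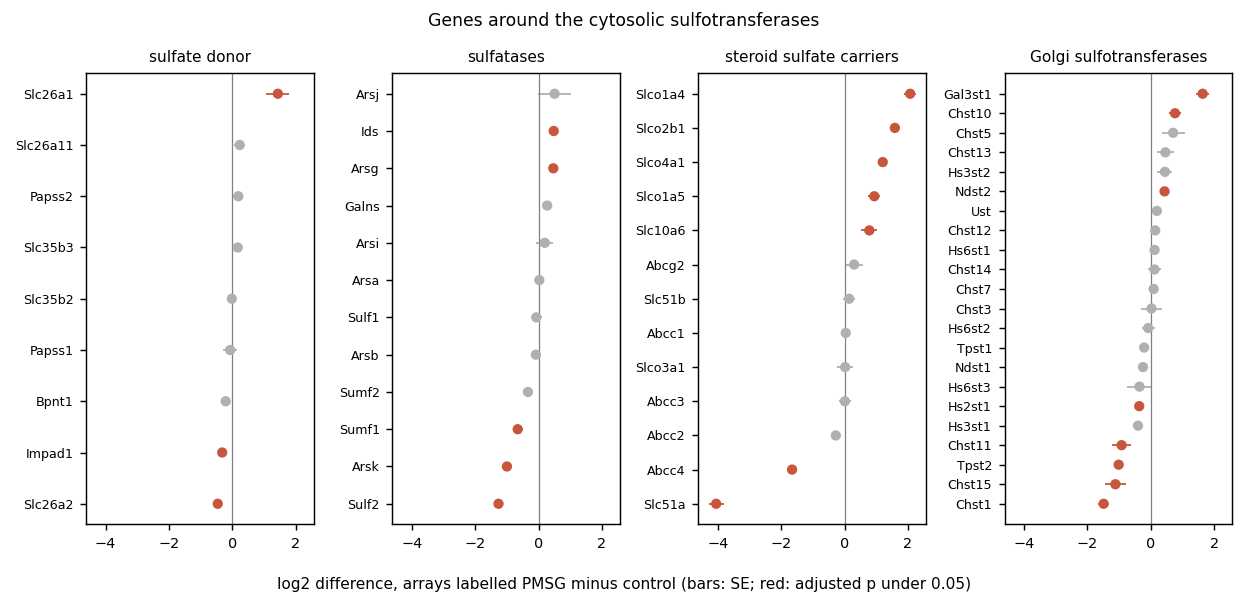
Log2 difference (arrays labelled PMSG minus control, bars for the SE) of the tested pathway genes, all but 1 of the 57, in 4 panels by role, red where the limma adjusted p was under 0.05 and grey otherwise. Slc51a at -4.05 and Slco1a4 at 2.07 are the ends of the range, both among the carriers, while the drawn probes of Papss1 and Papss2 lie at -0.07 and 0.18.

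The genes that make, sense and glucuronidate the substrates of these enzymes were read from a list of 18, of which 14 were tested, with 2 higher and 3 lower (35.7%, near the 34.2% of all probes). Hsd17b7, which turns estrone into estradiol and also serves cholesterol synthesis, fell by 3.77 (SE 0.17, limma adjusted p = 1.69e-05). Its levels were 2.13, 2.76, 2.18 and 2.18 in control and -1.47, -1.53, -1.20 and -1.61 in PMSG. Hsd17b1, the granulosa cell enzyme for the same step, had -0.23 (adjusted p = 0.519), and the probe for Cyp19a1, the aromatase, was above background on no array. This probe was the only 1 matched to Cyp19a1, through an accession. An absent transcript and a probe that does not read it cannot be told apart. Hsd3b, a dehydrogenase of steroid synthesis, fell by 1.46 (adjusted p = 8.84e-04). The estrogen receptors Esr1 (1.28, SE 0.21, adjusted p = 0.00250) and Esr2 (0.95, SE 0.17, adjusted p = 0.00356) were higher, without overlap between groups. Among the glucuronosyltransferases, Ugt1a6 (0.45, adjusted p = 0.115) and Ugt2b17 (0.29, adjusted p = 0.527) did not pass.

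The genes most like the singled-out members were sought over the 8 arrays as those with the smallest root mean square distance after subtracting each probe's mean. Because the arrays form 2 groups, this measure mostly picks genes with a like difference between labels. The distances from ste2 rest in part on its 4 PMSG values, which are at background, so their order is not firm. The nearest to ste2 was Hsd17b7 (distance 0.347), then Pnliprp2, a pancreatic lipase relative (0.408), and Pth2r, a parathyroid hormone receptor (0.441), which like ste2 was above background on 4 control and 0 PMSG arrays. The nearest to Sult1b1 were the asparagine synthetase Asns (0.228), Asphd2 (0.238) and the fatty acid transporter Slc27a6 (0.255). For Sult1a1 they were Ngfrap1 (0.0644), Fbxo21 (0.0793) and Atg13 (0.0831). For Sult2b1 the distances of Cxcr5 (0.184), Slc1a7 (0.194) and Psg19 (0.206) compare with a probe at background.

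Markers of some other cell types also differed between the labels, and the part of those cells in the results above was not tested. All 6 oocyte markers were higher in PMSG (median log2 difference 1.95), beside 17.6% of all tested probes. So were all 4 leukocyte and all 3 measured oviduct markers. Of 5 endothelial markers Tek, Flt1 and Kdr were lower (60%, beside 16.6% of all tested probes). Pecam1 (-0.16) and Cdh5 (0.54) did not pass. Summed signals, in multiples of the 75th percentile, were 2.83 to 5.05 in control and 9.66 to 21.3 in PMSG for oocyte, 6.72 to 8.36 and 10.8 to 12.1 for leukocytes, 1.64 to 2.68 and 4.68 to 9.17 for oviduct, and 18.9 to 22.4 and 14.9 to 16.7 for endothelium. Of 6 granulosa markers, Amh was higher and Inhbb lower (33.3%, near the 34.2% of all probes). The Inhbb call was lost without any 1 of 7 arrays (all but control array 3), and its other tested probe had -1.18. Of 4 theca markers Insl3 (2.60) and Ptch1 (0.79) were higher (50%, beside 17.6% of all tested probes). Cyp17a1 (-0.22) and Acta2 (-0.15) did not pass. Of 3 red cell markers 1 was lower (33.3%, beside 16.6% of all tested probes), and of 4 adipocyte markers none passed.

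Array quality was similar across labels, but PMSG arrays varied more. The median SD of tested probes was 0.16 in control and 0.27 in PMSG. The 75th percentile of signal was 1002 to 1103 on control arrays and 769 to 1082 on PMSG arrays, the lowest being PMSG array 3. Between 80.8% and 84.6% of probes were well above background. Correlations of levels across probes were 0.987 to 0.993 within control, 0.977 to 0.991 within PMSG and 0.960 to 0.972 between labels. All arrays shared 1 slide and scan date.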

How the data were processed

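Spot intensity came from Feature Extraction 11.5.1.1 and probe positions from rn4, per the file headers. The authors also deposited log2 values, which matched log2 signal minus each array's 75th percentile on every array (r at least 0.998, column medians -3.21 to -2.82) without centring of probes. Here log2 processed signals of a probe's spots were averaged without control and outlier spots and scaled to the 75th percentile. Probes well above background on at least 4 of 8 arrays entered a limma 3.58.1 fit (R 4.3.3), with two-sided p adjusted by Benjamini-Hochberg over 25303 probes at 0.05. This was tested on simulated data. One probe per gene, the brightest, served for lists. All matched members are reported; from the lists, genes past the threshold or with the largest 2 differences may be named. The members and lists were chosen with earlier results of these data known. Array numbers were checked for pairing: correlations of same-numbered deviations were 0.04, 0.04, 0.18 and -0.02, so no pairing was evident and the fit was unpaired. Such values cannot exclude a weak pairing. Gene names were updated through RefSeq (GRCr8) for Slco1a4, Slco1b2, Akr1c18 and Ugt2b35, and Cyp19a1 was found by accession. Sgsh, Hs3st3b1, Chst2, Ugt1a1 and Ovgp1 were not analysed here, and 1 pathway gene is counted but not reported here by name. Alternatives were other scalings, background corrections, filters, blocks and leaving out each array.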

Additional observations from a re-analysis of the deposited data

Results flagged for a closer look

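Among 69 groups of 4 arrays examined for the named genes, 1 had an array apart from the rest, where chance would set about 1 in 20 apart (3.45 groups). Control array 2 stood at 2.76 for Hsd17b7 against 2.13 to 2.18 on the other control arrays, a gap of 0.909 of the group's range. Without that array the difference was -3.62, and Hsd17b7 kept its limma call.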

How the results depend on the processing

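No difference of a called member, pathway, partner or neighbour gene changed sign under the alternatives run. With median centring 2914 probes were higher, 6 pathway genes were higher, and Sult1a1 differed by 0.55. With the normexp correction 7 pathway genes were lower and ste2 differed by -1.09. With the replicate block 7346 probes and 18 pathway genes passed, beside 8658 and 23 without it. The block cannot rest on a known pairing, and it ended the calls of Impad1, Ids, Slc10a6, Hs2st1 and Chst11. Leaving out 1 array gave 6552 to 11382 probes passing, 3273 to 6982 higher (the top without PMSG array 4), 15 to 21 pathway genes and 7 to 10 lower pathway genes (the lowest of both without control array 4). The median difference of all tested probes was 0.11, and 0.03 with quantile normalization and -0.05 with median centring. Of called probes 51.4% were higher, 46.2% with quantile normalization, 34.5% with median centring and 61.3% without PMSG array 4. A slide block could not be fitted because all arrays shared 1 slide; the row on the slide was used. Dim probes limit Sult2b1, Sult2a1, Sult2a6, Sult1c3, Sult1d1 and Sult1c2a.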
